A study of Mus musculus with 6 samples.

Results

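The transcripts of 10 heat shock proteins and chaperones, Hspa1a, Hspa1b, Hspa8, Hsph1, Dnajb1, Dnaja1, Hsp90aa1, Hsp90ab1, Hspd1 and Hspe1, were examined in regulatory T cells (Tregs) sorted from mouse lung tumors. The 10 genes were taken by symbol from a table of 15319 genes, of which 15315 had at least 1 count, and all 10 had counts in every library. The study compared 3 libraries of WT Tregs (Foxp3 Yfp-Cre mice) with 3 libraries of cKO Tregs (Xrcc6 flox/flox Foxp3 Yfp-Cre mice), in which Xrcc6, the gene of the DNA end-binding protein Ku70, is deleted by a Cre recombinase under the control of Foxp3. Both groups carried Foxp3 Yfp-Cre, and in the lung-colonizing model Lewis lung carcinoma (LLC) cells were injected into the tail vein of mice 8 to 10 weeks old, with tumors collected on day 21. Whether a library came from 1 mouse or from pooled mice is not given in the sources used here, so the p-values measure the spread between these libraries only.

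Heat shock proteins keep other proteins folded. HSP70 proteins bind unfolded stretches of a client, J-domain proteins of the HSP40 family deliver clients and start the HSP70 cycle, HSP110 proteins release the bound nucleotide, HSP90 proteins act later on signaling proteins and receptors, and HSP60 with its lid HSP10 folds proteins inside mitochondria. Some of these genes are expressed at all times, and others are switched on within minutes by heat shock factor 1 (HSF1) when unfolded protein accumulates. In T cells several of these genes are also known to rise upon activation and at fever-range temperature.

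The libraries held 19032620 to 23159815 counts each. Levels are given in CPM, counts relative to the total of the library, after TMM scaling between libraries, and 3 counts corresponded to 0.133 to 0.156 CPM. Xrcc6, the targeted gene, measured 20.9, 63.1 and 23.8 CPM in WT and 5.24, 3.51 and 4.18 CPM in cKO, in the order of the replicate numbers, which matched the labels of all 6 libraries. WT replicate 2 stood apart with 11513 genes detected against 14442 to 14737 in the other libraries. The fit of each single gene was therefore also made without this library. The Treg and T cell markers summed to 4170 to 5536 CPM. Of other cell types, the macrophage and dendritic cell markers were highest, with sums of 165 to 795 CPM. The endothelial markers summed to 60.5 to 93.7 CPM, the lung epithelial to 36.5 to 101 CPM and the B and plasma cell markers to 12.5 to 65.0 CPM. The neutrophil markers summed to 10.1 to 20.5 CPM and the red blood cell markers to at most 36.1 CPM. The CD8 T and natural killer cell markers summed to 5.22 to 27.2 CPM, with Ncr1 at 0 throughout, and the stromal markers to at most 2.94 CPM, with Pdgfra at 0 throughout.

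HSF1 binds inverted repeats of the triplet GAA, and the promoters of the members were searched for them because the inducible members are its best known targets. The letters searched were GAANNTTC and TTCNNGAA, which read the same on both strands, and the longer forms GAANNTTCNNGAA and TTCNNGAANNTTC, which contain the short ones. RefSeq promoter sequences of mouse build GRCm38.p6, each covering 250 bases before and 50 bases after an annotated start, were matched for 7 of the 10 members. Hsp90aa1, Hsp90ab1 and Hspa8 had no entry. A short form was present in at least 1 promoter of 6 of these 7 members and of 17.0% of all 27025 genes, and a long form for 3 members (Hsph1, Hspd1 and Hspe1) and 0.662% of all genes. Counted by promoter, a short form was in 7 of the 12 promoters of the members and in 15.1% of all 32851, and a long form in 4 of the 12 and in 0.603% of all. These counts are not of separate sites. The matches of Hspd1 and Hspe1 were the same bases read on opposite strands. The 2 promoters of Hsph1 overlapped and shared their sites, with the long form after the start. Dnajb1 had neither form in its windows. A match is a description of the letters and not of a bound site.

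The 150 bases before the start of Hspa1a (chr17:34972157-34972306, minus strand) and of Hspa1b (chr17:34959239-34959388, minus strand) are shown because these neighboring genes share nearly their whole promoter. Capitals mark the short heat shock element.
Hspa1a: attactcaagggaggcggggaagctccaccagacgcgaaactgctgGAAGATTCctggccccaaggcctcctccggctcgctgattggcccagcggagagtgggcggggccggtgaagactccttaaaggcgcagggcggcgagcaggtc
Hspa1b: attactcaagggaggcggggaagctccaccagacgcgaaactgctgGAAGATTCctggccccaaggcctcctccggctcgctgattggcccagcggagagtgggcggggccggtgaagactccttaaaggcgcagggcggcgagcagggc

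Of these 150 bases, 149 were identical, and the difference was T149G, counted from the 5′ end of the stretch with Hspa1a first. The elements of 3 further members are shown with flanking bases, again with the element in capitals. The stretch of Hspe1 (chr1:55088054-55088081, plus strand) lies upstream of the start of Hspe1 and, on the other strand, of 1 of the 2 RefSeq starts of Hspd1, carries overlapping long forms and overlaps an annotated exon of Hspd1. The stretch of Hsph1 (chr5:149636352-149636379, minus strand) holds a short form within an annotated exon of Hsph1, and the long form of Hsph1 is not shown. The stretch of Dnaja1 (chr4:40722334-40722361, plus strand) overlaps annotated exons of Dnaja1 and Gm6297.
Hspe1 and Hspd1: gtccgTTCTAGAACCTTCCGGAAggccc
Hsph1: ggtagaatctTTCTCGAAggctcgagaa
Dnaja1: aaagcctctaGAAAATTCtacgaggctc

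The first question was whether loss of Ku70 in Tregs was accompanied by a change in these transcripts. No member passed the threshold between cKO and WT Tregs in the edgeR quasi-likelihood test. None of the 10 had an adjusted p under 0.05 (0.0% of all 15315 genes did), none had an unadjusted p under 0.05 (1.81% of all genes did), and none had every cKO library on one side of every WT library (8.24% of all genes did). The adjusted p of the members ranged from 0.984 to 0.997 and the unadjusted p from 0.344 to 0.988. The cKO/WT log2 fold change lay above 0 for 7 members and below 0 for 3, with a median of 0.08 against 0.04 over all genes. The split was 6 and 4 when scaled by library size only, and it turned to 2 above and 8 below, with a median of -0.08, when limma's voomWithQualityWeights weighted the libraries. The 95% intervals were wide, with upper bounds from 0.46 to 1.06 and lower bounds from -0.99 to -0.36, so changes within these bounds remain possible. In the same fit the deleted gene Xrcc6 had a log2 fold change of -3.06 with an edgeR adjusted p of 0.984. The adjusted threshold thus missed even that change, and its result for the members says little.

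Hspa1a and Hspa1b are the inducible HSP70 genes of the cytosol. Hspa1a measured 2697, 1831 and 1820 CPM in the WT libraries and 3763, 1750 and 1609 CPM in the cKO libraries, here and below in the order of the replicate numbers. The first cKO library was the highest and the other cKO libraries the lowest, so that the cKO libraries lay on both sides of the WT libraries. The log2 fold change of Hspa1a was 0.17 (SE 0.38, edgeR adjusted p = 0.984).

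Hspa1b, the twin of Hspa1a, was at 268, 309.9 and 277 CPM in WT and at 364, 192 and 155 CPM in cKO, again with the cKO libraries on both sides of the WT libraries. Its log2 fold change was -0.27 (SE 0.31, edgeR adjusted p = 0.984). Hspa8, the constitutive HSP70 of the cytosol and the 7th most abundant transcript of the table, was at 4974, 5058 and 4290 CPM in WT and at 6217, 4933 and 4424 CPM in cKO. The groups overlapped and the log2 fold change of Hspa8 was 0.12 (SE 0.27).

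Hspa1a and Hspa1b lie 9951 bases apart on chromosome 17 (34969190 to 34972156 and 34956436 to 34959238, GRCm38, minus strand), and their coding sequences were 98.2% identical, with 34 differences in 1923 compared bases. Of the windows of 150 bases, the read length of the study, 38.1% of those in the Hspa1a transcript and 40.5% of those in the Hspa1b transcript occurred unchanged in the other gene, so the division of reads between them depends on the estimate made by the counting program and is uncertain. The assigned share of Hspa1b in the sum of both was 9.04%, 14.5% and 13.2% in WT and 8.81%, 9.9% and 8.8% in cKO, which put WT replicates 2 and 3 apart from the other libraries. Added together as 1 feature, the pair had a log2 fold change of 0.12 (edgeR adjusted p = 0.984).

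Hsph1, the HSP110 that acts as a nucleotide exchange factor of HSP70, was at 311, 347 and 298 CPM in WT and at 486, 263 and 205 CPM in cKO. The WT libraries were close together (SD 25.3, n = 3) and the cKO libraries spread around them (SD 148, n = 3). The group means of Hsph1 were nearly equal, 319 and 318 CPM, and its unadjusted p of 0.988 in edgeR was the highest of the members.

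The J-domain genes Dnajb1 and Dnaja1 were highest in different libraries. Dnajb1, the inducible HSP40, was at 840, 714 and 721 CPM in WT and at 1303, 687 and 767 CPM in cKO. Only the first cKO library lay above the WT range, and the log2 fold change of Dnajb1 was 0.28 (SE 0.27), with the lowest unadjusted p of the members, 0.344, in edgeR. Dnaja1, a J-domain protein that is expressed without stress as well, was at 533, 714 and 515 CPM in WT and at 700.2, 551 and 449 CPM in cKO. WT replicate 2 was its highest library, cKO replicate 1 the next, and without WT replicate 2 the log2 fold change moved from -0.05 (SE 0.23) to 0.11.

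Dnaja1 on chromosome 4 overlaps Smu1 and Gm6297 on the other strand, Hspa1a overlaps Gm20481, and Hspd1 and Hspe1 overlap by 112 bases. Strand use in the counting is not given in the sources used here, so reads in those stretches cannot be told apart. Unplaced reads are also possible between Hspd1, Hspe1 and Dnaja1 and their named pseudogenes (5, 6 and 1 in the annotation). Of these pseudogenes, 0 were in the table. Pseudogenes under other symbols were not searched for, so the same is possible for the other members.

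The HSP90 genes were abundant and moved little in WT. Hsp90aa1, the inducible form, was at 1695, 1681 and 1701 CPM in WT, the tightest group of any member, and at 2360, 1587 and 1363 CPM in cKO. The log2 fold change of Hsp90aa1 was 0.06 (SE 0.26). Hsp90ab1, the constitutive form, was at 3315, 2751 and 2979 CPM in WT and at 4176, 2785 and 2701 CPM in cKO, with a log2 fold change of 0.10 (SE 0.27).

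In both genes the first cKO library lay above and the third cKO library below every WT library. In the mitochondrial pair the first cKO library was the highest as well. Hspd1, which encodes HSP60, was at 271, 239 and 224 CPM in WT and at 332, 219 and 185 CPM in cKO, with a log2 fold change of 0.01 (SE 0.23). Hspe1, which encodes HSP10, was at 182, 119 and 175 CPM in WT and at 242, 181 and 129.7 CPM in cKO, with a log2 fold change of 0.22 (SE 0.27). For Hspe1 the lowest library was WT replicate 2, and without it the log2 fold change was 0.04.

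**Figure D1:**
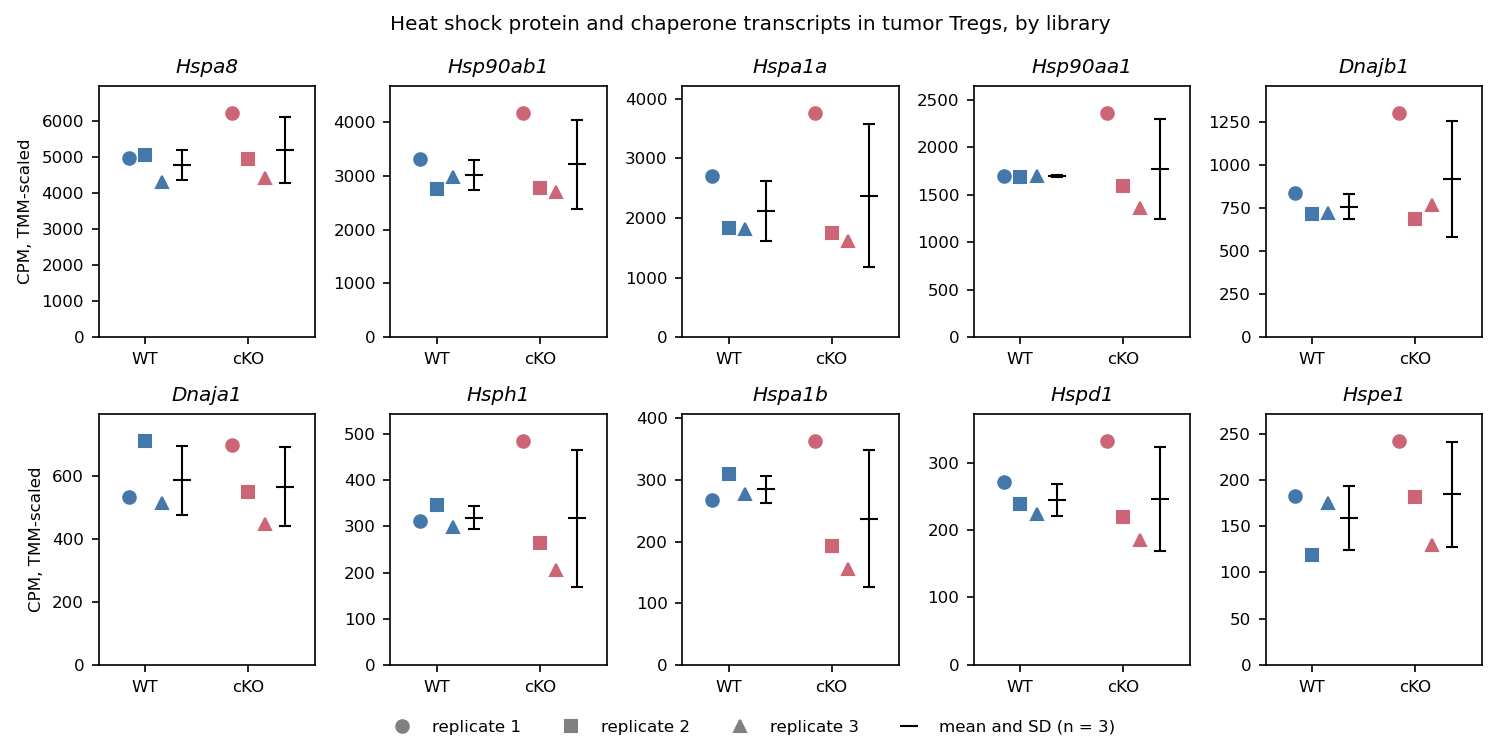
Level of each of the 10 transcripts in CPM (vertical axes, from 0) in WT (blue) and cKO (red) Tregs, with 1 point a library, its replicate number as the marker shape, and the group mean with SD (n = 3). The circle of cKO replicate 1 is the highest point in 9 of the 10 panels, and Dnaja1 is the exception.

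Divided by the length of their annotated exons, the 5 most abundant members kept their order and Hspe1 moved up from the last place. RPKM, the CPM divided by the exon length in kilobases, in WT was 1110 ± 98 (SD, n = 3) for Hspa8, 1010 ± 94.6 for Hsp90ab1, 713 ± 170 for Hspa1a and 431 ± 2.53 for Hsp90aa1. Hspa8 and Hsp90ab1 did not differ beyond their spread, while Hspa1a lay below both and above Hsp90aa1. Dnajb1 followed with 237 ± 22.1 RPKM, then Hspe1 with 108 ± 23.5, Hspa1b with 102 ± 7.88 and Hspd1 with 92.5 ± 9.09, and these last 3 did not differ beyond their spread. Dnaja1 at 68 ± 12.7 RPKM and Hsph1 at 43.9 ± 3.48 RPKM were the lowest per length. The length used was the union of all annotated exons of a gene, which can exceed that of the transcripts present. It was 8629 bases for Dnaja1 and 7266 for Hsph1, against 2967 for Hspa1a. The order per length therefore depends on the annotation as well as on the level.

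The cKO libraries did not behave alike. In 9 of the 10 members cKO replicate 1 was the highest of the 6 libraries, against 12.4% of all 15315 genes and 6.84% of the 1887 genes with a mean of at least 100 CPM. Dnaja1 was the exception, with cKO replicate 1 in second place. At the other end, cKO replicate 3 was the lowest library for 7 members, against 8.87% of all genes and 10.1% of those with a mean of at least 100 CPM. This pattern was noticed after the values were seen, and it is given as a description of single libraries with no test. The members rose and fell together over the 6 libraries, with a median pairwise Pearson r of 0.822 (0.203 to 0.979). The counts of members here and below are therefore not separate observations.

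Set against the mean of cKO replicates 2 and 3, the level in cKO replicate 1 was 2.24-fold for Hspa1a, 2.09-fold for Hspa1b, 2.07-fold for Hsph1 and 1.79-fold for Dnajb1, which are the strongly heat-inducible HSP70, HSP110 and HSP40 members. It was 1.64-fold for Hspd1, 1.60-fold for Hsp90aa1, the inducible HSP90, 1.56-fold for Hspe1 and 1.52-fold for Hsp90ab1, the constitutive HSP90. The lowest values were those of Dnaja1 at 1.40-fold and Hspa8 at 1.33-fold. The values of inducible and constitutive HSP90 were close, and the cause of this order was not tested. On the log2 scale the median of the members was 0.70, against -0.06 for the 1887 genes of at least 100 CPM, whose 95th percentile was 0.36. All 10 members were above the 96th percentile of those genes, from 96.2 for Hspa8 to 99.7 for Hspa1a.

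Among WT libraries the highest was 1.01-fold (Hsp90aa1) to 1.53-fold (Hspe1) the lowest, and among cKO libraries 1.41-fold (Hspa8) to 2.37-fold (Hsph1). The biological coefficient of variation, the spread between libraries of a group that edgeR estimates beyond counting error, was above the median of the genes of at least 100 CPM (18.9%) for all 10 members. It was 31.9% for Hspa1a, 28% for Hsph1 and 27.9% for Hspa1b, and 19.3% for Hspa8. Counting error was at most 1.99% in any library, so depth did not limit these values.

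The summed level of the 10 members was 15090, 13760 and 13000 CPM in WT and 19940, 13150 and 11990 CPM in cKO, or 2.07% of all counts in cKO replicate 1 and 1.16% to 1.51% in the other libraries. The group means were 13950 ± 1060 and 15030 ± 4300 CPM (SD, n = 3), so the groups differed by less than the spread between cKO libraries. In bulk samples a change in the share of cells that express a gene and a change in RNA per cell cannot be told apart.

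The immediate early genes and the macrophage and dendritic cell markers were not highest in cKO replicate 1 in sum. Its 18 immediate early genes, such as Fos, Junb and Dusp1, which rise when tissue is dissociated, summed to 18980 CPM, within the range of the other libraries (15660 to 29660 CPM) and below that of cKO replicates 2 (20490) and 3 (22510). The 8 macrophage and dendritic cell markers summed to 205 CPM in cKO replicate 1 and 165 CPM in WT replicate 1, the libraries with the highest summed level of the members, and to 417 to 795 CPM in the others. Of those markers the most abundant, Lyz2, was at 129, 474 and 500 CPM in WT and at 170, 323 and 625 CPM in cKO. None of the 8 markers was highest in cKO replicate 1. The B and plasma cell markers summed to 12.5 CPM there, the lowest of the libraries, and the CD8 T and natural killer cell markers to 27.2 CPM against 5.22 to 26.4 CPM elsewhere. The sums of the neutrophil, endothelial, stromal, lung epithelial and red blood cell markers in cKO replicate 1 lay within the range of the other libraries. The Treg and T cell markers summed to 4685 CPM there, within the range of the other libraries (4170 to 5536 CPM), but 2 of these 7 markers, picked out after their values were seen, were highest in cKO replicate 1. Foxp3, the defining factor of Tregs, was at 241, 150 and 208 CPM in WT and at 282, 189 and 242 CPM in cKO, and Il2ra, the IL-2 receptor alpha chain, at 306, 255 and 242 CPM in WT and at 323, 220 and 191 CPM in cKO. Of the others, Ikzf2, Tnfrsf18 and Cd4 were highest in WT replicate 1, Ctla4 in WT replicate 2 and Cd3e in cKO replicate 3. The part of cell composition in the order of the libraries was not tested.

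**Figure D2:**
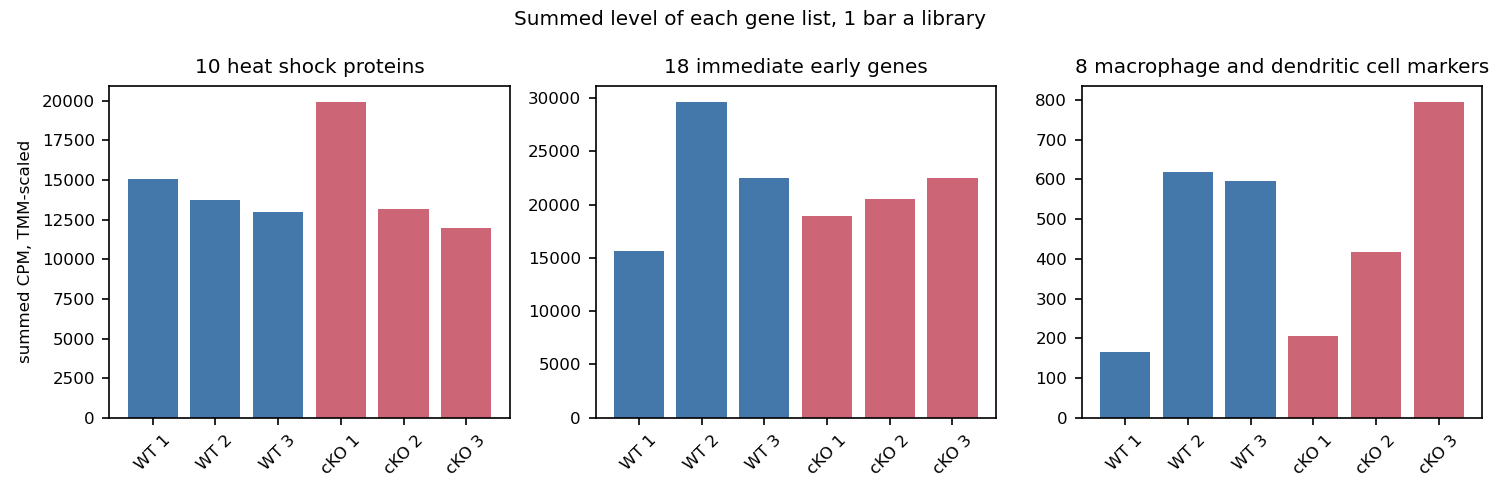
Summed CPM (vertical axes, from 0) of the 10 members, of 18 immediate early genes and of 8 macrophage and dendritic cell markers, with 1 bar for each WT (blue) and cKO (red) library. The members peak in cKO replicate 1 at 19940 CPM, where the markers of macrophages and dendritic cells are at 205 CPM and the immediate early genes at 18980 CPM.

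The comparison of cKO with WT turned on cKO replicate 1. Without it, all 10 members were lower in cKO, with a median log2 fold change of -0.21 against 0.04 over all genes. Hspa1b then had a log2 fold change of -0.71 and an unadjusted p of 0.00894 in edgeR, 1 of 10 members against 0.575% of all genes for lower values, with an adjusted p of 0.996. Hsph1 had a log2 fold change of -0.45 (unadjusted p = 0.0641, edgeR) and Hspa1a of -0.33 (unadjusted p = 0.305, edgeR). The other members lay between -0.27 and -0.03. For each member cKO replicate 1 was the highest cKO library, so leaving it out had to lower every cKO mean. These values describe the weight of that library and are no separate evidence of lower levels in cKO.

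Without WT replicate 2, 8 members had a log2 fold change above 0 and 2 below 0, with a median of 0.05 and no member with an unadjusted p under 0.05. The sign changed for Hsph1 (0.05), Dnaja1 (0.11) and Hspd1 (-0.01), and the values of Hspa1a and Hspe1 were 0.06 and 0.04. With WT replicate 2 and cKO replicate 1 both left out, a setting chosen after seeing the data, 9 members were lower in cKO and 1 was higher, and the median was -0.19. Hspa1b had a log2 fold change of -0.63 (unadjusted p = 0.0056, edgeR), the only such member against 2.26% of all genes, and an adjusted p of 0.953. No member reached an adjusted p under 0.05 in any of these fits.

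**Figure D3:**
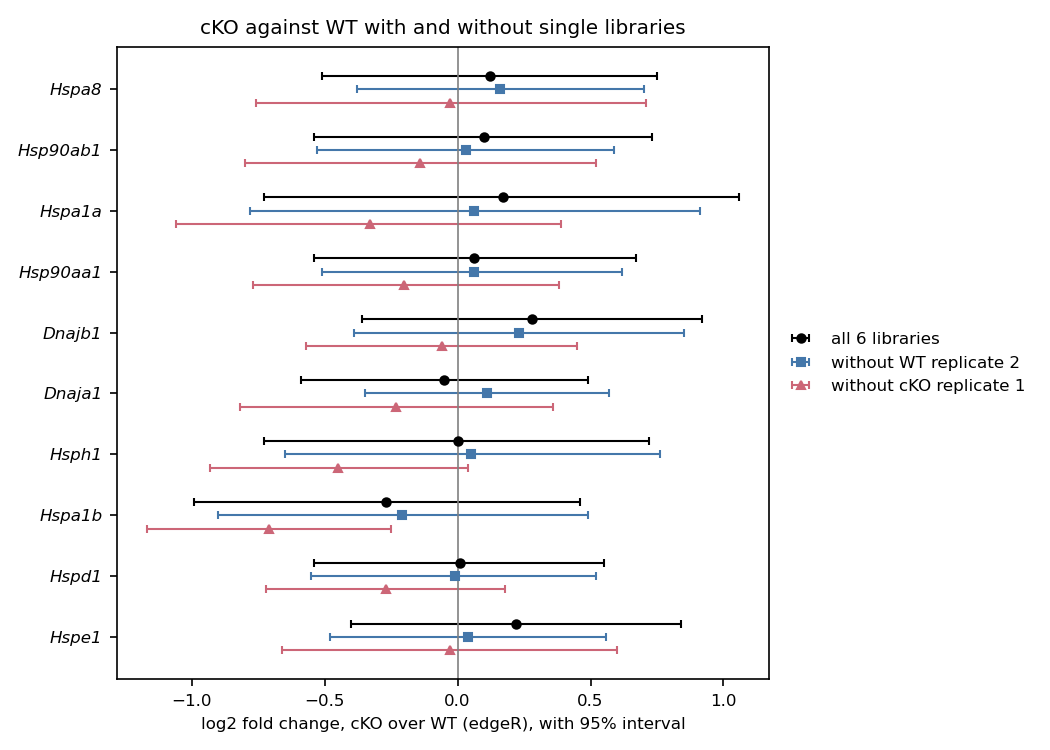
Log2 fold change of cKO over WT with its 95% interval (horizontal axis, edgeR) for each member with all 6 libraries (black circles), without WT replicate 2 (blue squares) and without cKO replicate 1 (red triangles). The red triangles lie below 0 for all 10 members, and only the interval of Hspa1b without cKO replicate 1 leaves out 0.

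Ratios of partner genes within a library do not depend on how libraries are scaled. The ratio of inducible to constitutive HSP70, Hspa1a plus Hspa1b over Hspa8, was 0.596, 0.423 and 0.489 in WT and 0.664, 0.394 and 0.399 in cKO. The highest value was again that of cKO replicate 1, and the groups overlapped. The log2 ratio differed by -0.08 between cKO and WT (exact two-sided permutation p = 0.8).

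The ratio of Hsp90aa1 to Hsp90ab1 was steadier, from 0.505 to 0.611 over all 6 libraries, with a log2 difference of -0.04 (exact permutation p = 0.5). Dnajb1 over Dnaja1 ran from 1.00 to 1.86 with a log2 difference of 0.28 (exact permutation p = 0.4), and Hspd1 over Hspe1 from 1.21 to 2.0 with a log2 difference of -0.23 (exact permutation p = 0.4). Adjusted over the 4 ratios, p was 0.667 to 0.8, and 0.1 is the smallest p that 3 against 3 libraries allow in this exact test. None of the 4 ratios differed beyond the spread between libraries. Without WT replicate 2 the log2 difference was 0.09 for Dnajb1 over Dnaja1, -0.05 for Hspd1 over Hspe1 and -0.20 for Hspa1a plus Hspa1b over Hspa8, and without cKO replicate 1 the last was -0.33.

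**Figure D4:**
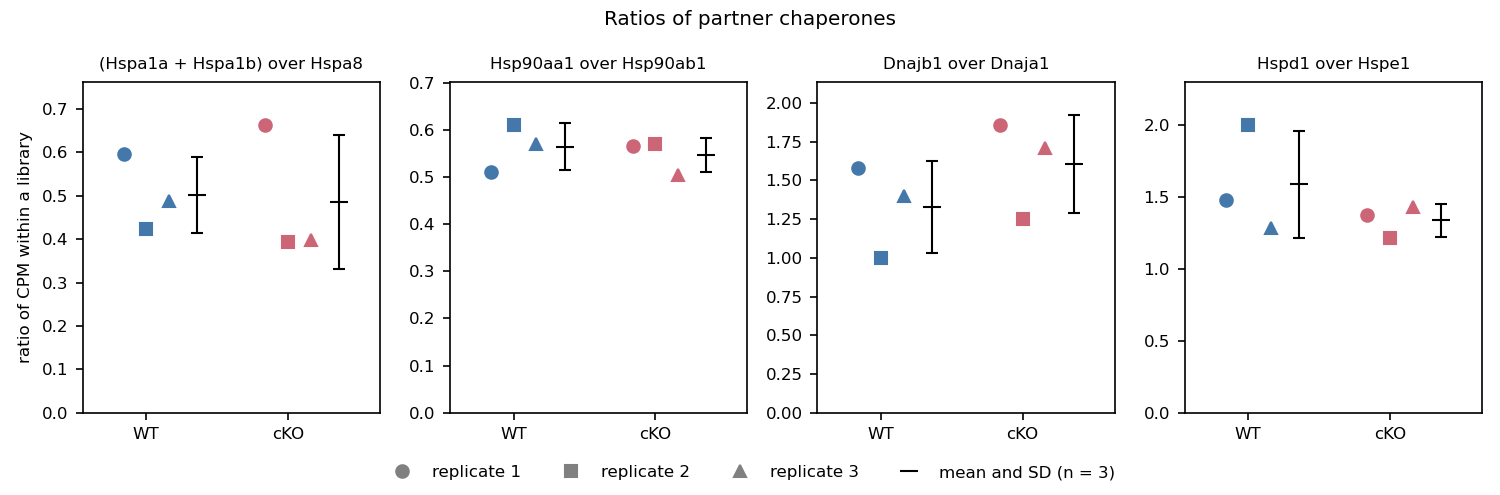
Ratio of CPM of partner chaperones within each library (vertical axes, from 0) for WT (blue) and cKO (red), with replicate numbers as marker shapes and mean with SD (n = 3). For Hspa1a plus Hspa1b over Hspa8 the first replicates of both groups are the highest, 0.596 in WT and 0.664 in cKO.

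Other chaperone and stress genes were read from 11 lists holding 121 genes with counts. Besides chaperones, the lists hold heat shock factors, other heat-induced genes and immediate early genes. No gene of these lists had an adjusted p under 0.05, and 1, Zfand2a, had an unadjusted p under 0.05 (1.81% of all genes did). Zfand2a, an arsenite- and heat-inducible regulator of the proteasome, was at 53.6, 59.9 and 63.6 CPM in WT and at 87.1, 71.9 and 70.8 CPM in cKO, with every cKO library above every WT library. Its log2 fold change was 0.38 (unadjusted p = 0.0382, adjusted p = 0.984, edgeR), and without cKO replicate 1 the unadjusted p was 0.148.

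The level in cKO replicate 1 relative to the other cKO libraries differed between these lists. Some lists share genes, so a gene can be counted in more than 1 of them. Over all genes, 12.4% were highest in cKO replicate 1. Among 20 other genes induced by heat shock, 10 were highest in cKO replicate 1, with a median log2 difference of 0.43 to the other cKO libraries. Among them, Hspb1, a small heat shock protein, was at 30.3, 7.99 and 28.4 CPM in WT and at 49.6, 14.3 and 15.2 CPM in cKO. Ubb, a ubiquitin gene and the most abundant of that list, had a log2 difference of 0.25. Of 9 other HSP70 and HSP110 genes 5 were highest in cKO replicate 1 (median 0.37), with 0.19 for Hspa4 and 0.14 for Hspa9, the mitochondrial HSP70. Some of those 5 were near the floor, with at most 19 counts in any library. Of 14 HSP90 co-chaperones 5 were highest there (median 0.27), with -0.11 for Cdc37, which brings kinases to HSP90, and 0.01 for Ptges3, the p23 protein.

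The 15 chaperones of the endoplasmic reticulum had a median log2 difference of 0.01, with 1 gene highest in cKO replicate 1 and values of 0.10 for Hspa5 and -0.06 for Pdia3. The 14 genes of the TRiC chaperonin and prefoldin had a median of -0.04 and 3 genes highest there, with Cct5 at 0.00 and Pfdn5 at -0.84. The 9 mitochondrial chaperones and proteases (median 0.18, 1 highest there) included Yme1l1 at 0.03 and Afg3l2 at 0.25. The 10 nucleotide exchange factors and BAG proteins (median 0.00, 2 highest there) included Bag1 at -0.35 and Bag6 at 0.11.

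The 9 other J-domain genes had a median log2 difference of 0.32 with 1 highest in cKO replicate 1, and values of -0.17 for Dnaja2 and -0.08 for Dnajb6. Among 10 small heat shock protein genes, 7 had counts (median -0.01, 1 highest there). The immediate early genes (median -0.15, 1 of 18 highest there) included Junb at -0.16 and Dusp1 at -0.14. Hsf1, the gene of the heat shock factor itself, was at 82.6, 124 and 78.5 CPM in WT and at 94.0, 72.7 and 82.5 CPM in cKO. Its level overlapped between the groups, and with Hsf2, Hsf4, Hsf5 and Hsbp1 it formed a list with a median of 0.27 and 1 gene highest in cKO replicate 1.

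**Figure D5:**
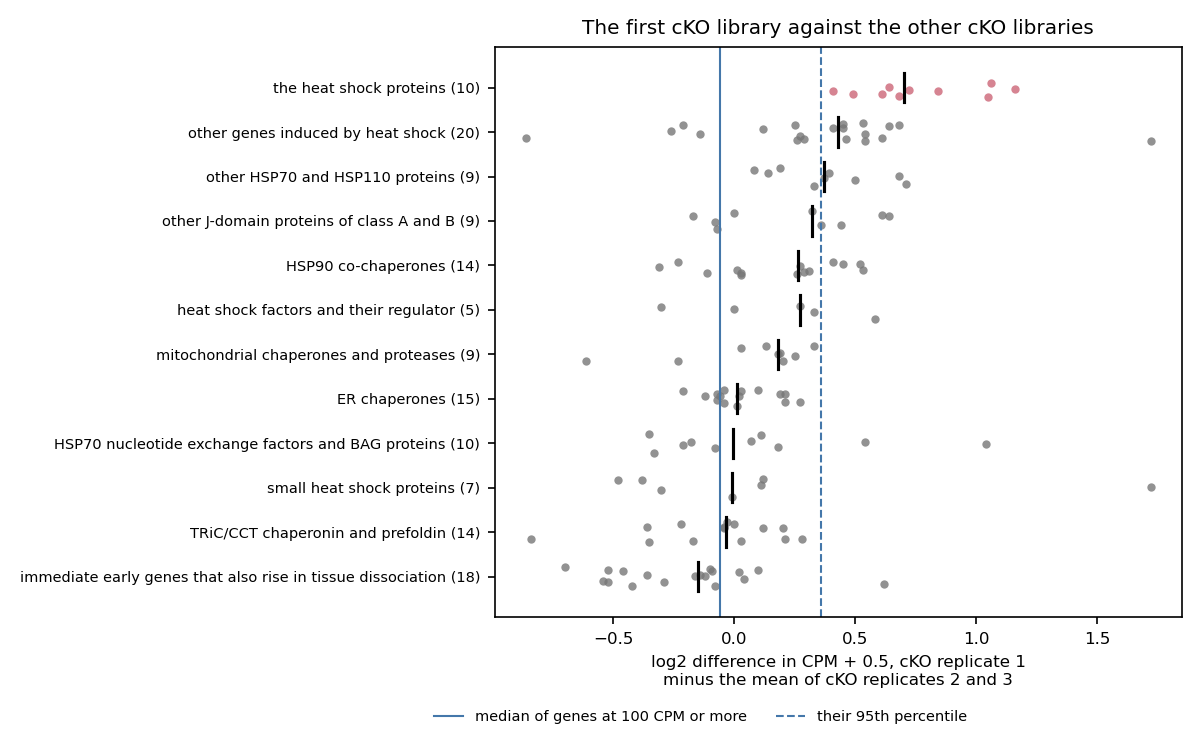
Log2 difference in CPM (pseudocount 0.5) between cKO replicate 1 and the mean of cKO replicates 2 and 3 (horizontal axis), with 1 point a gene, for the 10 members (red) and 11 related lists (grey, number of genes in brackets). Black bars are list medians and blue lines mark the median (-0.06) and 95th percentile (0.36) of genes of at least 100 CPM. All 10 members lie right of the 95th percentile, and the medians of the other lists fall from 0.43 to -0.15.

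The genes whose profile over the 6 libraries was most like the mean standardized profile of the members were Pank3 (Pearson r = 0.971), Alkbh5 (0.965), Dock9 (0.943), Slc25a38 (0.942) and Cdc16 (0.933), picked as the highest of 8437 genes with a mean of at least 10 CPM. All 5 were highest in cKO replicate 1, Pank3 at 26.0 CPM against 17.0 to 22.3 CPM in the other libraries and Alkbh5 at 128 CPM against 103 to 114 CPM. With 6 libraries and so many genes compared, these values describe likeness in these libraries only.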

How the data were processed

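The members and all gene lists were chosen with earlier results of these data known. RNA was extracted with TRIzol, libraries were made with a SMARTER kit and sequenced on BGI-Seq500 as paired reads of 150 bases. The deposited values are expected counts per gene that the authors made against GRCm38, and their processing notes name Bowtie2 (2.3.4.3) and RSEM (1.3.1). Of the values, 21.6% were not whole, and they were rounded. edgeR (4.0.16, R 4.3.3) fitted 15315 genes with TMM scaling and the quasi-likelihood test, Benjamini-Hochberg adjusted over all genes. DESeq2 (1.42.0), limma (3.58.1), other scalings, a low-count filter, a replicate block and leaving out libraries were alternatives. The scripts were tested on simulated data. RPKM used the length of the union of all exons of a gene in the GENCODE annotation. Named genes were the members, Xrcc6, in each other list the genes with unadjusted p under 0.05 and the 2 most abundant (marker lists only where they stand beside a result), and the 5 genes most like the members. Hspb1 and Hsf1 fall under this rule. Foxp3 and Il2ra do not and were named after their values were seen, with the other Treg and T cell markers beside them. Of the genes the rule names, 1 is not reported here. Gene lists were described by counts and medians, without set tests.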

Additional observations from a re-analysis of the deposited data

How the results depend on the processing

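No member passed an adjusted p of 0.05 under any setting tried. Members lower in cKO with an unadjusted p under 0.05 numbered 0, but 1 (Hspa1b) without cKO replicate 1 (range 0 to 1 with each library left out) and 1 without WT replicate 2 and cKO replicate 1 together, a setting chosen after seeing the data. Over all genes, adjusted p under 0.05 was reached by 0 genes in edgeR, by 1 higher and 1 lower in DESeq2, by 1 higher and 2 lower in DESeq2 without WT replicate 2, and by 0 to 1 lower with each library left out. Genes higher with unadjusted p under 0.05 numbered 144, against 95 in DESeq2, 39 with filterByExpr, 39 with the replicate block, 262 with voomWithQualityWeights, 45 to 287 with each library left out and 359 without both. Genes lower numbered 133, against 212 in DESeq2, 46 with the replicate block, 281 with voomWithQualityWeights, 20 to 601 with each library left out and 346 without both. Related-list genes higher numbered 1, against 0 with library size only, 0 with the replicate block, 0 to 3 with each library left out, 2 in DESeq2 without WT replicate 2 and 2 without both, and genes lower 0, against 3 with voomWithQualityWeights, 0 to 3 with each library left out and 4 without both. Their median log2 fold change was -0.03 with library size only. The log2 differences of the partner ratios ran, with each library left out, from -0.33 to 0.05 for Hspa1a plus Hspa1b over Hspa8, -0.11 to 0.01 for Hsp90aa1 over Hsp90ab1, 0.09 to 0.45 for Dnajb1 over Dnaja1 and -0.37 to -0.05 for Hspd1 over Hspe1. The causes of these shifts were not tested.

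Signs of member log2 fold changes were unstable. With voomWithQualityWeights, Hspa1a was -0.09, Hsp90aa1 -0.08, Hsp90ab1 -0.05, Hspd1 -0.12 and Hspe1 -0.09. Without both libraries, Hspa1a was -0.41, Dnajb1 -0.09, Hsp90aa1 -0.19, Hsp90ab1 -0.18, Hspd1 -0.28 and Hspe1 -0.19. In DESeq2 without WT replicate 2, Hsph1 was 0.05, Dnaja1 0.11 and Hspd1 -0.02, and with library size only Hspd1 was -0.04. With each library left out, values ran from -0.33 to 0.38 for Hspa1a, -0.45 to 0.23 for Hsph1, -0.06 to 0.45 for Dnajb1, -0.23 to 0.11 for Dnaja1, -0.20 to 0.22 for Hsp90aa1, -0.14 to 0.21 for Hsp90ab1, -0.03 to 0.22 for Hspa8, -0.27 to 0.18 for Hspd1 and -0.03 to 0.41 for Hspe1. Xrcc6 had a log2 fold change of -3.06 (edgeR adjusted p = 0.984), -3.05 in DESeq2 (adjusted p = 1.22e-05), -2.38 without WT replicate 2 (edgeR adjusted p = 0.0196), -2.38 in DESeq2 without it (adjusted p = 1.09e-16), and -3.33 to -2.38 with each library left out.

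The labels do not say whether samples with the same replicate number were paired, and the correlations below cannot decide it. The correlations of same-numbered deviations from the group means were 0.121, -0.0742 and 0.226, the last being the highest of all pairs. Those of different-numbered libraries ran from -0.267 to 0.139, and WT replicate 1 correlated best with cKO replicate 2 (0.139). With the replicate block the members' median log2 fold change was 0.05, Hspd1 was at -0.03 and 0 members had an unadjusted p under 0.05.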
